A study of Homo sapiens with 8 samples.

Results

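The genes described here are 10 that encode inhibitors induced by the kinase ERK, or transcripts read as a measure of its activity: the phosphatases DUSP4, DUSP5, DUSP6 and DUSP7, the Sprouty proteins SPRY1, SPRY2 and SPRY4, the Sprouty-related proteins SPRED1 and SPRED2, and PHLDA1. They were taken by symbol, and each of the 10 was found once among the 59641 genes of the table. Their mRNA was measured by RNA sequencing in HCT116, an established human colorectal cancer line. There were 4 libraries of cells kept for 72 hours with hFGF19 (the human hormone FGF19, at 100 ng/ml), and 4 control libraries of the same line without it. The libraries of each group are numbered 1 to 4 in the labels, which do not say how long the controls were cultured or whether the 4 libraries of a group came from separate cultures. P-values therefore measure the spread between these libraries, which may be technical.

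FGF19 signals through FGF receptors, mainly FGFR4 with its co-receptor KLB, and one arm of that signal runs through RAS, RAF and MEK to ERK. Active ERK raises the transcription of genes that damp the same cascade. DUSP enzymes remove the activating phosphates from ERK itself, Sprouty proteins act higher up between the receptor, RAS and RAF, and SPRED proteins bring neurofibromin, the product of NF1, to the membrane to switch RAS off. Because these mRNAs follow ERK activity in many tissues, DUSP6 and the Sprouty genes are known targets of FGF signals in development, and the series is about FGFR4 and ERK, the comparison bears on whether their levels differed after 72 hours.

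The values are FPKM as deposited, reads per kilobase of gene model and per number of reads in the library. Levels of different genes are compared on that scale only, and depend on the length given to each gene model. The libraries held between 17121190 and 20752753 reads. Of 10 colorectal epithelial markers, 5 (KRT8, KRT18, KRT19, CDH1 and EPCAM) were above a mean of 1 FPKM, whereas KRT20, CDX2, VIL1, LGR5 and CEACAM5 were below it. The labels' RNA protocol mentions adipose material: of 6 adipocyte markers only CFD was above 1 FPKM, and FABP4 had no reads. The 6 adipocyte markers summed to 97.7 to 115 FPKM with hFGF19 and 104 to 126 FPKM in controls, the 6 fibroblast markers, of which only COL1A1 was above 1 FPKM, to 18.5 to 26.4 and 20.5 to 26.6 FPKM, the 6 immune markers to 1.29 to 2.49 and 0.987 to 1.83 FPKM, and the 4 endothelial markers to 8.85 to 10.3 and 7.16 to 10.1 FPKM, in the same order of groups. Of the immune markers only CD14 was above a mean of 1 FPKM (1.19 FPKM), and CD3E had no reads. Of the endothelial markers PECAM1 (4.68 FPKM) and CDH5 (3.79 FPKM) were above it. The part of other cells in the results below was not tested.

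None of the feedback inhibitors was called different after 72 hours of hFGF19. Of the 10 genes, 0 passed limma at an adjusted p below 0.05, and 0 passed at an unadjusted p below 0.05. Over all 14100 genes tested, those with a mean of at least 1 FPKM, 15 were called (0.106%) and 596 had an unadjusted p below 0.05 (4.23%). All 10 genes passed the filter on low values. The mean was higher with hFGF19 for 5 of the 10 and lower for the other 5, with a median log2 change of 0.011, against -0.013 over all genes tested. In 0 of the 10 did the hFGF19 and control libraries lie apart, which 3.12% of all genes did. The adjusted p was 0.9998 for each of the 10 by limma. A fit with replicate number as a block called 21 genes (0.149%) and voom on recovered reads 14 (0.0993%), and 0 of the 10 were among either. In bulk RNA, fewer cells holding an mRNA and less of it per cell cannot be told apart.

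The size of each change is given with an interval that, like the p-values, rests on the spread between these libraries. Because that spread may be technical, the intervals may not bound a change between separate cultures. The 95% confidence intervals of the log2 changes, on the log2(FPKM + 1) scale, lay between -0.31 and 0.29 for all 10 genes. On that scale the highest upper bound was that of SPRY4, 1.22-fold, and the lowest lower bound that of DUSP7, 0.804-fold. These are folds of FPKM + 1, which understate changes of low genes, so the order of bounds between genes may depend on the added 1. For comparison, IER3, an early response gene that ERK also induces, was the one called gene among 17 other ERK output genes tested. Over all genes tested, 0.106% were called. From a list chosen with earlier results of these data known, IER3 is shown because it was called. It was at 235 ± 11.6 FPKM with hFGF19 and 181 ± 6.07 FPKM in controls (SD, n = 4 each), a log2 change of 0.38 with an interval of 0.26 to 0.49 (adjusted p = 0.02474, limma). That call was kept in 1 of 8 fits that each left out 1 library, with log2 changes of 0.35 to 0.41. It was lost without a filter on low values (adjusted p = 0.1084, limma) and within libraries 1 and 4 or 2 and 3 alone (adjusted p = 0.07201 and 0.3528, limma). The log2 change was 0.38 without the filter, 0.41 in libraries 1 and 4 and 0.34 in libraries 2 and 3. The difference between IER3 and the feedback inhibitors was not itself tested.

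**Figure D1:**
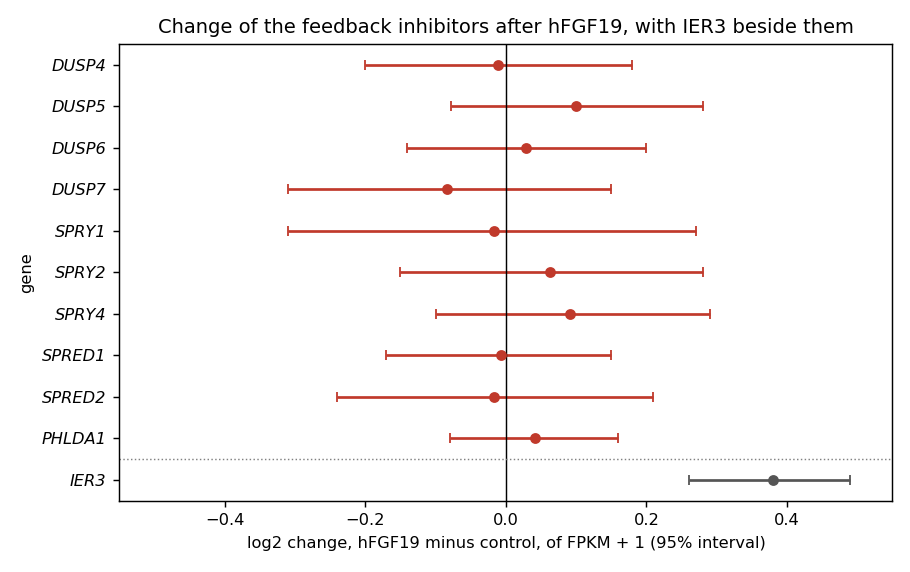
Log2 change of FPKM + 1, hFGF19 minus control (horizontal axis), for each of the 10 feedback inhibitors and for IER3; points are limma estimates and bars 95% confidence intervals, n = 4 libraries a group. All 10 intervals of the feedback inhibitors cross 0, and that of IER3 runs from 0.26 to 0.49. IER3 is shown because it was called.

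The phosphatases that act on ERK in the cytoplasm are DUSP6 and DUSP7. DUSP6 (ENSG00000139318), which is selective for ERK, was at 9.72, 8.52, 8.32 and 8.92 FPKM in hFGF19 libraries 1 to 4, against 8.79, 9.57, 7.94 and 8.43 FPKM in control libraries 1 to 4. The groups overlapped, and the highest and the next highest value came from hFGF19 library 1 and control library 2. The means were 8.87 ± 0.618 FPKM with hFGF19 and 8.68 ± 0.687 FPKM in controls (SD, n = 4 each), and the log2 change was 0.028 ± 0.0774 (SE). DUSP7 (ENSG00000164086), a close relative of DUSP6, was at 8.64, 7.25, 5.82 and 7.70 FPKM with hFGF19, against 7.96, 7.29, 7.53 and 8.40 FPKM in controls. Its hFGF19 library 3 was the lowest of the 8, and hFGF19 library 1 the highest. The log2 change of DUSP7 was -0.084 ± 0.104 (SE), and it was 0.0096 without hFGF19 library 3.

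The nuclear phosphatases were the more abundant pair. DUSP4 (ENSG00000120875), which acts on ERK and on the stress kinases JNK and p38, was at 70.6, 60.5, 54.9 and 67.1 FPKM with hFGF19, against 68.5, 58.0, 60.1 and 67.9 FPKM in controls. In both groups libraries 1 and 4 were high and libraries 2 and 3 low, and the group means of 63.3 ± 6.95 FPKM with hFGF19 and 63.6 ± 5.33 FPKM in controls (SD, n = 4 each) were almost equal. The log2 change was -0.011 ± 0.0863 (SE). DUSP5 (ENSG00000138166), which is selective for ERK and holds it in the nucleus, was at 24.0, 23.8, 21.4 and 26.6 FPKM with hFGF19, against 23.0, 19.5, 23.1 and 23.5 FPKM in controls. It had the highest point estimate of the 10, 0.10 ± 0.0808 (SE), with an unadjusted p of 0.240 by limma. Control library 2 lay well below the other controls, and without it the log2 change was 0.041.

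Among the Sprouty genes, SPRY2 (ENSG00000136158), whose product binds GRB2 and CBL once it is phosphorylated, was the most abundant. It was at 21.5, 17.3, 17.1 and 20.7 FPKM with hFGF19, against 18.9, 16.3, 17.1 and 20.8 FPKM in controls, with a log2 change of 0.063 ± 0.0972 (SE). SPRY4 (ENSG00000187678), which inhibits the cascade above ERK, was at 11.8, 10.8, 9.68 and 12.1 FPKM with hFGF19, against 10.8, 9.23, 9.99 and 11.4 FPKM in controls. It was higher with hFGF19 in 3 of the 4 pairs of the same replicate number, and its log2 change was 0.091 ± 0.0881 (SE). The long RNA SPRY4-AS1 overlaps SPRY4 on the other strand and held at most 15 reads in a library, against 412 to 586 reads for SPRY4.

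SPRY1 (ENSG00000164056), another inhibitor of receptor signals to RAS, was the lowest of the 10 and the most variable. It was at 7.60, 5.47, 5.19 and 5.70 FPKM with hFGF19, against 7.33, 4.92, 5.66 and 6.38 FPKM in controls. Library 1 was the highest of each group. It rested on 149 to 254 reads a library, and its coefficient of variation (SD over mean) was 18.2% with hFGF19 and 17.0% in controls, where counting alone would give 7.41%. The log2 change of -0.017 ± 0.130 (SE) had the widest interval of the 10, -0.31 to 0.27.

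Neither SPRED gene passed the test, and they differed in how they varied between libraries. SPRED2 (ENSG00000198369) was at 49.7, 45.5, 38.1 and 49.9 FPKM with hFGF19, against 49.6, 40.2, 43.7 and 51.7 FPKM in controls, with a log2 change of -0.017 ± 0.102 (SE). SPRED1 (ENSG00000166068), the gene lost in Legius syndrome, a human condition of the RAS pathway, was at 23.7, 27.1, 26.2 and 23.5 FPKM with hFGF19, against 24.0, 28.1, 25.0 and 24.0 FPKM in controls. In SPRED2 libraries 1 and 4 were the high ones, and in SPRED1 libraries 2 and 3. The log2 change of SPRED1, -0.0064 ± 0.0717 (SE), was the closest to 0 of the 10.

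PHLDA1 (ENSG00000139289), a protein with a pleckstrin homology-like domain whose mRNA is used as a readout of ERK activity, was the steadiest. It was at 32.7, 31.6, 35.0 and 34.1 FPKM with hFGF19, against 32.2, 33.5, 30.9 and 32.9 FPKM in controls. Its coefficient of variation was 4.41% with hFGF19 and 3.41% in controls, on 3561 to 4465 reads a library. With a log2 change of 0.041 ± 0.0544 (SE), it had the narrowest interval, -0.08 to 0.16.

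**Figure D2:**
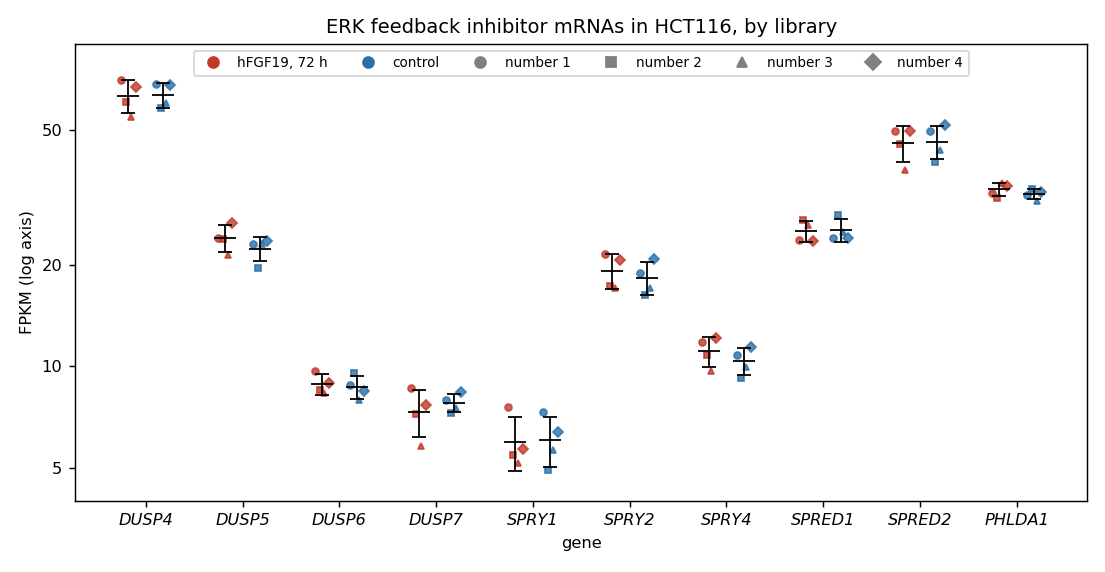
FPKM on a log axis for each of the 10 genes (horizontal axis), hFGF19 libraries left (red) and control libraries right (blue); marker shapes give the replicate number, and black bars the mean ± SD of 4 libraries. The groups overlap in every gene, and levels run from 4.92 FPKM for SPRY1 to 70.6 FPKM for DUSP4.

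Ranked by level per length, DUSP4 came first of the 10 genes and SPRY1 last. The order depends on the length of each gene model. SPRED2, with a length of 1295 bases recovered from the values, held 878 to 1348 reads a library. PHLDA1, with 6574 bases, held 3561 to 4465 reads and ranked below it. The means over 8 libraries were 63.4 FPKM for DUSP4, 46.0 for SPRED2, 32.9 for PHLDA1, 25.2 for SPRED1, 23.1 for DUSP5, 18.7 for SPRY2, 10.7 for SPRY4, 8.78 for DUSP6, 7.57 for DUSP7 and 6.03 for SPRY1. DUSP4 stood above 85.0% of all genes tested, DUSP6 above 40.3% and SPRY1 above 32.6%. The 8-library ranges of DUSP4, SPRED2, PHLDA1 and SPRED1 did not overlap between neighbours, nor did those of SPRY2 and SPRY4. The ranges of the other neighbours overlapped, as for SPRED1 and DUSP5 (SPRED1 higher in 6 of 8 libraries) and for SPRY4 and DUSP6 (SPRY4 higher in 7 of 8). DUSP5 was higher than SPRY2, DUSP6 than DUSP7, and DUSP7 than SPRY1 in 8 of 8 libraries although their ranges overlapped. The 10 genes together summed to 259.9, 237.8, 221.8 and 256.4 FPKM in hFGF19 libraries 1 to 4, against 251.0, 226.7, 230.9 and 255.5 FPKM in control libraries 1 to 4.

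Libraries with different replicate numbers lay apart in most of the 10 genes. In 6 of the 10 genes (DUSP4, DUSP7, SPRY1, SPRY2, SPRY4 and SPRED2) all 4 libraries numbered 1 and 4 were above all 4 numbered 2 and 3, whatever their group. In SPRED1 they were all below, and in DUSP5, DUSP6 and PHLDA1 they overlapped. Over all genes tested, 11.3% had libraries 1 and 4 above, 11.4% had them below, and 22.7% either, so that 7 of 10 is to be read against 22.7%. For SPRY2 the mean of libraries 1 and 4 was 1.23 times that of 2 and 3 with hFGF19 and 1.19 times in controls. For SPRED1 these ratios were 0.887 and 0.905, and for PHLDA1 1.0 and 1.01. SPRY4 met the condition narrowly, with libraries 1 and 4 at 10.80 FPKM or more and libraries 2 and 3 at 10.78 or less.

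The division was taken from all genes tested and not from these 10. The first principal component of all genes tested held 35.4% of the variance, with scores of 5.88 to 14.9 for libraries numbered 1 and 4 and of -18.2 to -6.73 for those numbered 2 and 3. Read totals overlapped, at 17778831 to 20752753 and 17121190 to 18938686. The labels do not say what a number stands for, no test was made of a division found in the same libraries, and the 10 genes share those libraries. Within libraries 1 and 4, the log2 changes with hFGF19 ran from -0.047 for SPRY1 to 0.11 for DUSP5, and within libraries 2 and 3 from -0.17 for DUSP7 to 0.087 for DUSP5. DUSP6 was at 0.10 in the first pair and -0.046 in the second. Of the 10 genes, 0 passed limma in either pair of replicate numbers. Of all 14100 genes, only 8 passed in libraries 1 and 4 and 9 in libraries 2 and 3.

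**Figure D3:**
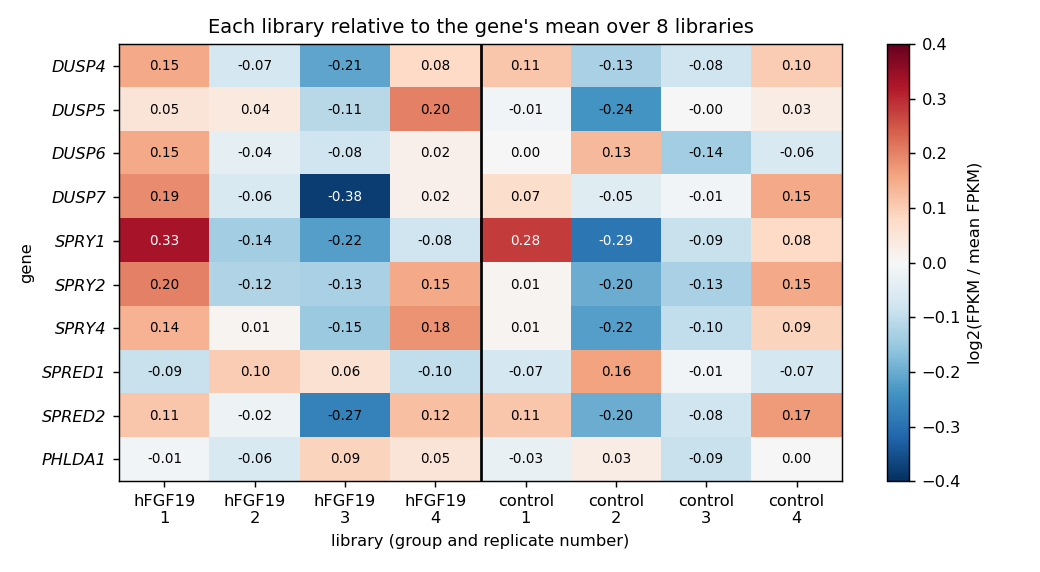
Log2 of each library's FPKM over the gene's mean of 8 libraries, for the 10 genes (rows) and the 8 libraries (columns, hFGF19 left of the black line, control right). In both groups of DUSP4, SPRY2 and SPRED2, libraries 1 and 4 are positive (red) and libraries 2 and 3 negative (blue). Some are nearly white, as SPRY2 in control 1 (0.01) and SPRED2 in hFGF19 2 (-0.02). SPRED1 shows the reverse except in control 3 (-0.01).

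The promoters of 4 of these genes are shown because their mRNAs varied in different ways between libraries: SPRY2 and SPRED1 in opposite directions, PHLDA1 hardly, and DUSP6 without regard to number. Whether the promoter sequences bear on that variation was not tested. Each is the 250 bases before a RefSeq start in GRCh38.p14 (a later build than the hg19 named in the submitters' processing notes), 5′ to 3′ on the gene's strand, and capitals mark the ETS motif CCGGAA on either strand. SPRY2 lies at chr13:80341127-80341376 (minus strand, 1 of 3 starts listed, and the only one of them with CCGGAA), SPRED1 at chr15:38252586-38252835 (plus), PHLDA1 at chr12:76031777-76032026 (minus) and DUSP6 at chr12:89352502-89352751 (minus).
SPRY2: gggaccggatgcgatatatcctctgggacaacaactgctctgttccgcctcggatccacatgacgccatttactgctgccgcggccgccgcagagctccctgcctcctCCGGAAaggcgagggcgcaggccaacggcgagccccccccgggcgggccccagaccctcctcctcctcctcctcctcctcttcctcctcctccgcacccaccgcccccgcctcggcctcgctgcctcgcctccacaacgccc
SPRED1: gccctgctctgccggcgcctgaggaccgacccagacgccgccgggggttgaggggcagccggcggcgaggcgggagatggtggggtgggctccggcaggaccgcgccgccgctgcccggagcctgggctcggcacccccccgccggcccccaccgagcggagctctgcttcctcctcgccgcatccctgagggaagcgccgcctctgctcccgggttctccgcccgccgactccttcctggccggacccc
PHLDA1: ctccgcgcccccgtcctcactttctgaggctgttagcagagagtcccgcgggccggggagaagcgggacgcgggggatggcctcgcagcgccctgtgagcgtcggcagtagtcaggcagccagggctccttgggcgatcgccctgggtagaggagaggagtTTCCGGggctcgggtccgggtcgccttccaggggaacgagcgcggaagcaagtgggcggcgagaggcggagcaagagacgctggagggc
DUSP6: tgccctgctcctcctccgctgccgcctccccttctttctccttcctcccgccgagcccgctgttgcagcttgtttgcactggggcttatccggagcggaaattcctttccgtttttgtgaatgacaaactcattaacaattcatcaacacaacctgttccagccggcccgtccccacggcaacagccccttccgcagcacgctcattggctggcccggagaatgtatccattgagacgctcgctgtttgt

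ETS factors are transcription factors that ERK phosphorylates, and CIC is a repressor that ERK releases from its targets. The set of RefSeq promoters used here held 12 starts for 8 of the 10 genes, and 0 for DUSP4 and DUSP5. CCGGAA was found before 1 start each of SPRY1, SPRY2 and PHLDA1, that is before 3 of 12 starts, and in 14.5% of the 35116 promoters in the table. The CIC motif TGAATGNA, the CRE motif TGACGTCA and the AP-1 motif TGANTCA, each searched on both strands, were in 0 of the 12 and in 3.25%, 1.65% and 6.57% of all promoters. The search covers these letters in these windows only. SPRED1 and DUSP7 had the highest share of G and C, 78.4%, and DUSP6 had 57.2%.

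No relative of the 10 genes passed the test. Of 10 relatives, 8 were tested, 0 rose and 0 fell, where 0.106% of all genes were called. The median log2 change was 0.012, and SPRY3 and DUSP2 were below the filter. By limma 1 of the 8 had an unadjusted p below 0.05, against 4.23% of all genes. It was PHLDA3, a relative of PHLDA1 named after its values were seen, at 1.91 ± 0.474 FPKM with hFGF19 and 1.35 ± 0.0838 FPKM in controls (SD, n = 4 each). Its log2 change was 0.30 (unadjusted p = 0.0486, adjusted p = 0.9998, limma), on 27 to 53 reads a library. Its groups did not overlap, as in 3.12% of all genes tested. DUSP1, a nuclear phosphatase for p38, JNK and ERK, was at 90.6 ± 7.41 FPKM with hFGF19 and 96.7 ± 4.67 FPKM in controls (SD, n = 4 each). It was lower with hFGF19 in each of the 4 pairs of the same number, with an unadjusted p of 0.181 by limma. How many of all genes had the same direction in all 4 pairs was not counted. DUSP16, a phosphatase of JNK and p38, was at 64.3 ± 5.19 FPKM with hFGF19 and 67.4 ± 4.61 FPKM in controls, DUSP8, of the same substrates, at 19.6 ± 2.19 FPKM with hFGF19 and 19.8 ± 0.919 FPKM in controls, and PHLDA2, another relative of PHLDA1, at 99.8 ± 12.5 FPKM with hFGF19 and 95.6 ± 10.7 FPKM in controls (SD, n = 4 each).

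No other regulator of the cascade was called. In a list of 12 regulators of receptor, RAS and ERK signals, 0 rose and 0 fell, where 0.106% of all genes were called. Lower means with hFGF19 were seen in 10 of the 12 (as in 7942 of all 14100 genes). The median was -0.069 against -0.013 over all genes. IL17RD, an inhibitor of FGF signals that is named here after its values were seen, was the one gene of the list whose groups did not overlap, which 3.12% of all genes did. It was at 11.4 ± 0.838 FPKM with hFGF19 and 12.6 ± 0.435 FPKM in controls (SD, n = 4 each), with an unadjusted p of 0.0692 by limma. The list was drawn up as negative regulators, but SHOC2 in it is a scaffold that promotes RAF activation. ERRFI1, an inhibitor of the EGF receptor, was at 56.4 ± 6.14 FPKM with hFGF19 and 59.7 ± 2.70 FPKM in controls (SD, n = 4 each), and PEBP1, an inhibitor of the cascade above ERK, at 37.8 ± 1.11 FPKM with hFGF19 and 39.0 ± 2.19 FPKM in controls. PEA15, which holds ERK in the cytoplasm, was at 521 ± 22.6 FPKM with hFGF19 and 528 ± 26.5 FPKM in controls. NF1, the partner of the SPRED proteins, was at 80.2 ± 17.0 FPKM with hFGF19 and 78.4 ± 20.3 FPKM in controls, a larger spread than that of either SPRED gene.

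Among 18 other genes used as ERK output, 17 were tested, 1 rose (IER3), 0 fell and 16 did not pass. Over all genes tested, 0.106% were called. The mean was higher with hFGF19 for 10 of the 17, against 6158 of all 14100 genes. It was lower for the other 7, which were ETV1, EGR1, IER2, CCND1, EPHA2, EPHA4 and HBEGF. Their log2 changes ran from -0.13 (IER2) to -0.056 (EPHA2). The median of the list was 0.076, against -0.013 over all genes tested. By limma 4 of the 17 (IER3, AREG, FOSL1 and ETV4) had an unadjusted p below 0.05, all of them higher with hFGF19, against 4.23% of all genes in either direction. Because the list was chosen with earlier results of these data known, that share is no test of the list. AREG and ETV4 are named here after their values were seen. AREG, which encodes the EGF receptor ligand amphiregulin, was at 63.1 ± 2.55 FPKM with hFGF19 and 53.7 ± 2.83 FPKM in controls (SD, n = 4 each), with an adjusted p of 0.4426 by limma. ETV4, a transcription factor of the PEA3 group, was at 75.6 ± 3.69 FPKM with hFGF19 and 67.8 ± 3.55 FPKM in controls (SD, n = 4 each), with an adjusted p of 0.9998 by limma. The hFGF19 libraries of both genes lay above all controls, as did those of IER3 and KCNN4 in this list. Over all genes tested, the groups lay apart in 3.12%, in either direction. KCNN4, also named after its values were seen, had an unadjusted p of 0.0618 by limma. FOSL1, an AP-1 subunit that ERK stabilises, was at 276 ± 27.6 FPKM with hFGF19 and 232 ± 16.8 FPKM in controls (SD, n = 4 each). FOSL1 was higher in each of the 4 pairs, a trait not counted over all genes, with an adjusted p of 0.934 by limma. CCND1, the cyclin of the G1 phase, was at 638 ± 73.5 FPKM with hFGF19 and 682 ± 72.6 FPKM in controls, and EPHA2, an ephrin receptor, at 246 ± 39.8 FPKM with hFGF19 and 255 ± 36.6 FPKM in controls. Of 15 genes of the RAS, RAF, MEK and ERK core, 0 passed, against 0.106% of all genes. The median of the core was -0.0078.

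At the head of the pathway, the receptors were present and KLB was scarce. FGFR4 was at 44.9 ± 5.51 FPKM with hFGF19 and 51.4 ± 2.32 FPKM in controls, and FGFR1 at 143 ± 11.7 FPKM with hFGF19 and 153 ± 11.4 FPKM in controls (SD, n = 4 each). FGFR2 was at 21.8 ± 2.50 FPKM with hFGF19 and 25.3 ± 2.60 FPKM in controls (SD, n = 4 each), a log2 change of -0.21, the lowest change among the 4 receptor genes tested. All 4 had lower means with hFGF19, with a median of -0.16 against -0.013 over all genes. Of the 4, 0 passed, against 0.106% of all genes. FGFR4 and FGFR2 had an unadjusted p of 0.0373 and 0.0462 by limma, 2 of 4 genes against 4.23% of all genes, and an adjusted p of 0.9998 each. The receptor list, too, was chosen with earlier results known, so that share is no test of it. FGFR4 and FGFR2 were lower with hFGF19 in each of the 4 pairs of the same number, which was not counted over all genes. In both the groups overlapped. KLB, below the filter, had 29 reads over the 4 hFGF19 libraries and 22 over the 4 controls, and no difference could be detected at that depth (exact two-sided permutation p = 0.457).

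**Figure D4:**
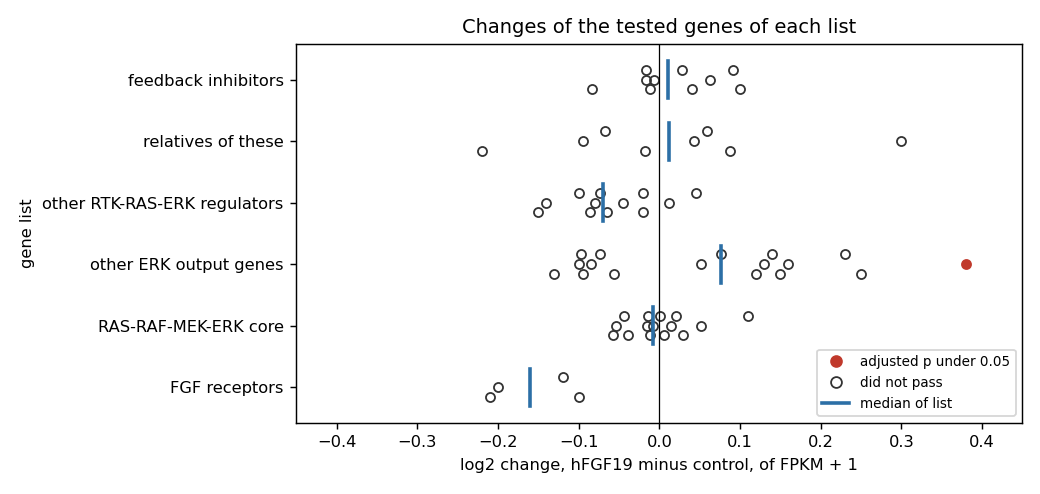
Log2 change of FPKM + 1, hFGF19 minus control, of every tested gene (points) in 6 lists (rows), with the median of each list as a blue bar; the filled point is IER3, the only gene in these lists with an adjusted p below 0.05. The 10 feedback inhibitors lie between -0.084 and 0.10.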

How the data were processed

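The values are FPKM deposited by the authors, 1 per gene and library. The submitters' processing notes list HISAT2 2.0, StringTie 1.3.0 and hg19 without roles. Annotation, strand setting and filters: not given in the sources used here. Low FPKM stepped in whole reads, and 99.996% of values above 0 came out whole within 0.02 reads. The read totals come from these steps, and PCR copies may be among them. limma 3.58.1 in R 4.3.3 was fitted to log2(FPKM + 1) with a variance trend, over 14100 genes (mean of 1 FPKM or more), with Benjamini-Hochberg adjustment. That scale understates changes of low genes. Named were the 10 members, called genes of each list and up to 4 with the highest FPKM. AREG, ETV4, KCNN4, IL17RD and PHLDA3 were added after their values were seen. So were ETV1, EGR1, IER2, EPHA4 and HBEGF, to name every gene of their list with a lower mean. The members and lists were chosen with earlier results of these data known. Deviations of same-numbered libraries had correlations of 0.30, 0.17, 0.17 and 0.11, against -0.45 to 0.44 otherwise (median -0.17). Some libraries of different numbers were closer, hFGF19 library 3 with control library 2 (0.44) and hFGF19 library 1 with control library 4 (0.41). The correlations therefore do not establish a pairing by number. The main fit was unpaired, replicate number was a block in an alternative fit, and pairs of the same number are described only. The code was tested on simulated data. Sequences are from RefSeq, GRCh38.p14.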

Additional observations from a re-analysis of the deposited data

Results flagged for a closer look

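Of 58 groups of 4 libraries examined, 2 held 1 library whose gap to the others exceeded Dixon's critical value, where chance gives about 1 in 20. DUSP5 in control library 2 was at 19.5 FPKM and in the other controls at 23.0 to 23.5 FPKM (gap over range 0.864). IER3 in control library 2 was at 172 FPKM and in the other controls at 183 to 184 FPKM (gap over range 0.916).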

How the results depend on the processing

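The count of 0 changed feedback inhibitors was the same in all 17 alternatives run, where their lowest adjusted p was 0.8202 and their log2 changes lay between -0.17 and 0.15. The count of 15 changed genes was 7 to 13 with 1 library left out, 8 in libraries 1 and 4 alone and 9 in libraries 2 and 3 alone. With the replicate number as a block it was 21, of which 0 were feedback inhibitors. Voom on recovered reads, chosen after seeing the data, called 14 genes. Estimates near 0 that were not called changed sign. With quantile normalization SPRY1 was at 0.0030 and SPRED1 at 0.00081. In libraries 1 and 4 alone DUSP4 was at 0.013 and DUSP8 at 0.044. In libraries 2 and 3 alone DUSP6 was at -0.046, SPRY1 at 0.013, SPRED1 at 0.0086 and NF1 at -0.023. With 1 library left out, the range was -0.064 to 0.054 for DUSP4, -0.012 to 0.071 for DUSP6, -0.16 to 0.0096 for DUSP7, -0.12 to 0.065 for SPRY1, -0.041 to 0.044 for SPRED1 and -0.080 to 0.067 for SPRED2. It was -0.019 to 0.15 for PHLDA2, -0.073 to 0.053 for DUSP8, -0.050 to 0.0085 for PEA15, -0.09 to 0.17 for NF1 and -0.14 to 0.049 for EPHA2. The cause was not tested. The planned count models edgeR and DESeq2 were not run, and voom was the one model fitted to the recovered reads.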
